A study of Mus musculus with 8 samples.

Results

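The genes described here are 10 genes of efferocytosis, the uptake of dying cells: Mertk, Axl, Tyro3, Timd4, Mfge8, Elmo1, Dock1, Dock2, Tgm2 and Megf10. They were picked by symbol from the 21051 genes that the sample tables list, by a rule that uses no measured value, though earlier results of these data were known when they were chosen. Each was compared between tumor-associated macrophages (TAMs) of WT and Colec11-/- mice, to ask whether the loss of collectin-11 went with other levels of the uptake machinery. The TAMs were CD45+F4/80+ cells sorted on day 14 from subcutaneous tumors of the B16 line, pigmented melanoma cells that derive from C57BL/6 mice. There were 4 libraries of WT cells (TAM-WT) and 4 of Colec11-/- cells (TAM-KO), with 4 mice per group by the study's description. All mice were on the C57BL/6 strain, WT littermates served as controls, and by the study's general methods the mice were adult males. The deletion was germline, so that every cell of the host lacked the gene while the inoculated B16 cells did not.

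Macrophages recognize a dying cell by phosphatidylserine, a lipid that moves to its outer surface. Mertk, Axl and Tyro3, the TAM receptor tyrosine kinases (a name they share with the cells by coincidence), bind it through the secreted bridging proteins Gas6 and protein S, while Timd4 binds it directly. Signals from the receptors converge on complexes of Elmo and Dock proteins, which activate Rac and drive the cell membrane around the corpse. In tumors this pathway is known mainly for dampening inflammation after uptake.

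Reads on genes numbered between 16225362 and 17280267 in the 7 complete libraries. The table of TAM-KO replicate 1 lacked an unbroken run of 5311 genes, among them Mertk, Mfge8 and Elmo1, which therefore have 3 TAM-KO libraries. Colec11 had from 0 to 4 counts in TAM-WT and 1 count in each TAM-KO library, so the targeted gene could not check the labels at this depth. Summed FPKM (fragments per kilobase of gene and per fixed number of mapped fragments) of 6 macrophage markers spanned 4020 to 4900 in TAM-WT and 4040 to 4660 in 3 TAM-KO libraries, and 0 of the 6 passed the test. Most of the sum came from Cd68 and C1qa, with TAM-WT means of 2075 and 1795 FPKM. The log2 fold changes in TAM-KO were -0.55 for Cd68, -0.40 for Itgam, -0.22 for Adgre1 and -0.19 for Csf1r. Those of C1qa and Fcgr1 were 0.13 and 0.49. Over all genes, 1218 of the 12412 tested passed an adjusted p of at most 0.05 in edgeR's quasi-likelihood test with Benjamini-Hochberg adjustment. This count depended on single libraries, being 2755 without TAM-WT replicate 2, 151 without TAM-WT replicate 3, 416 without TAM-WT replicate 4, then 682 lacking TAM-KO replicate 1 and 77 lacking either TAM-KO replicate 2 or TAM-KO replicate 3.

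None of the 9 members that could be tested passed that threshold in TAM-KO against TAM-WT. By the same test, 9.81% of all genes passed, 4.58% being higher and 5.24% lower. The members' log2 fold changes ran from -0.50 for Elmo1 to 0.71 for Megf10. Their median was -0.05, beside 0.00 over all genes, with 4 positive and 5 negative. At an unadjusted p under 0.05 stood 4 of the 9 members, namely Mertk, Elmo1, Tgm2 and Megf10, and 30.7% of all genes. Other tools called more: Mertk, Elmo1 and Megf10 passed in DESeq2, where 18.2% of all genes passed, and the same 3 in limma voom with quality weights, where 29.2% did. Of the 3 members measured in 4 against 3 libraries, 1 (Mertk) had FPKM values that did not overlap between the groups, which held for 26.5% of such genes. Of the 6 tested members measured in 4 against 4, 0 were free of overlap, against 17.1% of such genes.

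**Figure D1:**
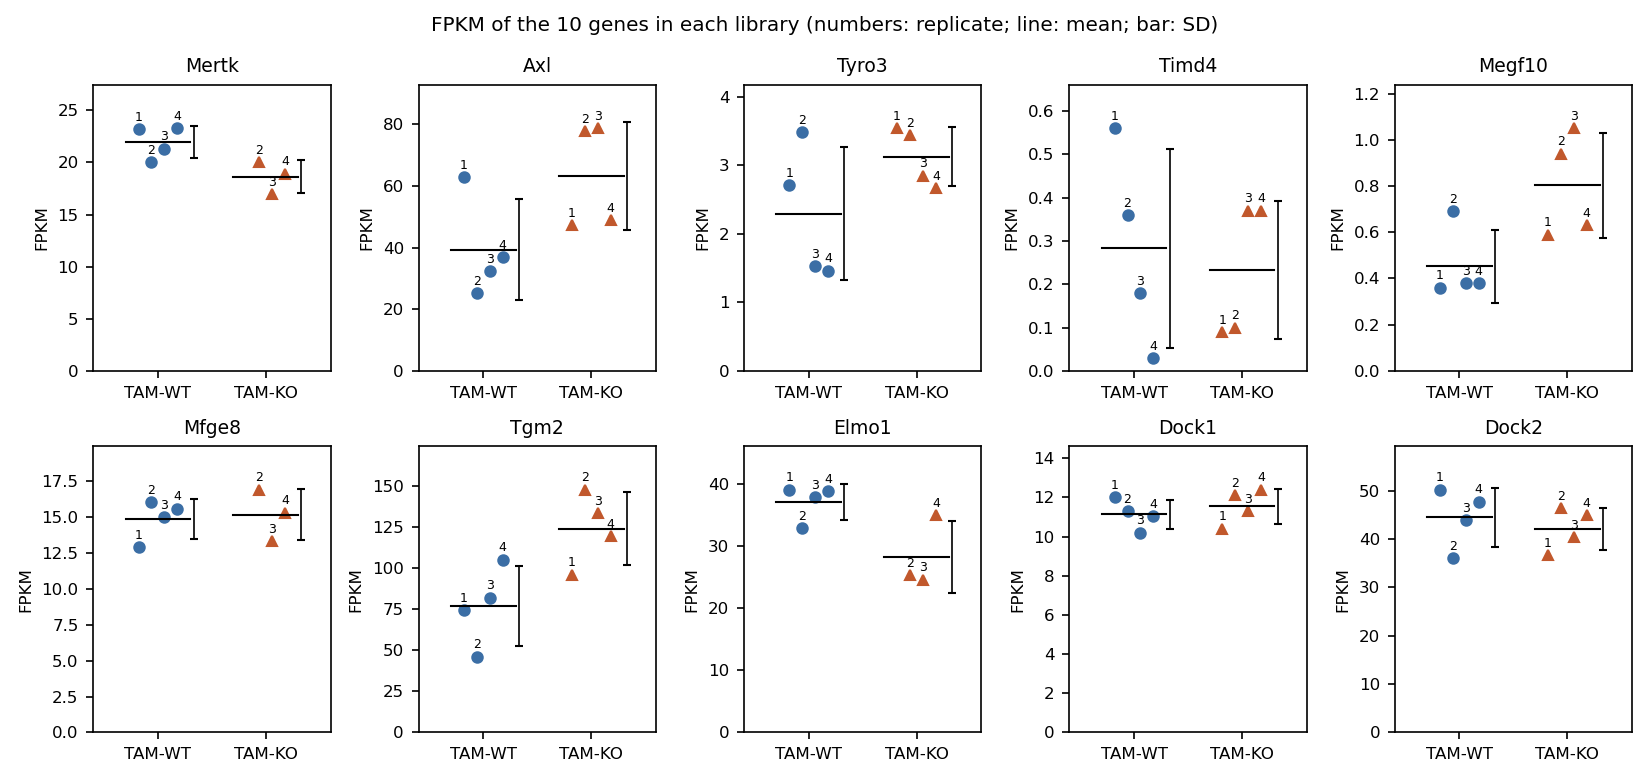
FPKM of the 10 genes in TAM-WT (circles) and TAM-KO (triangles), 1 point per library numbered by replicate, with the group mean as a line and the SD as a bar; each vertical axis has its own scale and Mertk, Mfge8 and Elmo1 lack TAM-KO replicate 1. Mertk does not overlap (lowest TAM-WT 20.06, highest TAM-KO 20.05) and the groups overlap for the other 9.

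Mertk is the TAM kinase that macrophages rely on most for engulfment. It lies on chromosome 2 (RefSeq, GRCm38.p6, 128698915 to 128803162). Its FPKM was 23.17, 20.06, 21.33 and 23.29 in the TAM-WT libraries, in order of replicate, and 20.05, 16.96 and 18.92 in TAM-KO replicates 2 to 4. Every TAM-KO library thus lay below every TAM-WT library, although TAM-KO replicate 2 and TAM-WT replicate 2 differed by 0.01. The means were 21.96 ± 1.55 (SD, n = 4) and 18.64 ± 1.56 (SD, n = 3). The log2 fold change was -0.35 ± 0.09 (SE), which did not pass (adjusted p = 0.0557, edgeR). Without TAM-WT replicate 2 it passed (adjusted p = 0.0133, edgeR, where 22.2% of all genes passed), as it did in DESeq2 (adjusted p = 0.0199) and voom (adjusted p = 0.0104). That was the only pass among the 8 fits with 1 library left out, where adjusted p reached 0.171 without TAM-KO replicate 3 (edgeR). For Mertk the fit without TAM-KO replicate 1 used the same libraries as the reported fit. With total counts as library sizes the log2 fold change was -0.234 (adjusted p = 0.109, edgeR). In limma on log2(FPKM + 1) it was -0.226 (adjusted p = 0.115). In sorted cells a smaller share of cells with the transcript and less of it in each cell cannot be told apart, for Mertk as for every gene below.

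Axl, on chromosome 7 (25756500 to 25788924), is the TAM kinase that inflammatory stimuli induce, and its ligand is Gas6. Its FPKM was 62.85, 25.24, 32.29 and 36.95 in TAM-WT and 47.21, 77.87, 78.74 and 48.9 in TAM-KO. All TAM-KO libraries were above 3 of the TAM-WT libraries, but TAM-WT replicate 1 exceeded TAM-KO replicates 1 and 4. The means were 39.33 ± 16.4 and 63.18 ± 17.5 (SD, n = 4 each), with a log2 fold change of 0.57 ± 0.27 (SE, adjusted p = 0.178, edgeR). Without TAM-WT replicate 1 the log2 fold change was 0.87 and passed (adjusted p = 0.0437, edgeR, where 9.31% of all genes passed). TAM-WT replicate 1 also had the highest summed FPKM of 6 T cell markers in its group, 14.8 beside 2.06 to 3.45 in the other TAM-WT libraries. That sum was 38.0, 32.2 and 14.8 in TAM-KO replicates 2, 3 and 4, the last being the lowest of them in Axl too. TAM-KO replicate 1, lower still in Axl, has no sum because it lacks a Cd4 value. In the table of the whole series its other T cell markers all exceeded those of TAM-KO replicate 4. Cd8a, for example, had 4.22 against 2.72 FPKM, and Lat 2.38 against 2.15. Of the 6 T cell markers 0 passed the test. Cd4 had a log2 fold change of -0.29, and the others had from 1.93 (Lat) to 3.04 (Cd8a). The part of T cells or other cells in the Axl values was not tested.

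The ratio of Axl to Mertk FPKM sets these kinases side by side within a library. It was 2.71, 1.26, 1.51 and 1.59 in TAM-WT and 3.88, 4.64 and 2.58 in TAM-KO replicates 2 to 4. Axl was the more abundant in all 7 libraries, and the groups overlapped only through TAM-WT replicate 1, which lay above TAM-KO replicate 4. No test was run on the ratio.

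The 250 bases upstream of the starts that the RefSeq promoter table uses for both kinases and for their ligand Gas6 are shown because the values of these 3 genes carry the comparison of receptors with ligand; capitals mark GC boxes (GGGCGG on either strand).
Mertk, GRCm38.p6, plus strand, chr2:128698665-128698914: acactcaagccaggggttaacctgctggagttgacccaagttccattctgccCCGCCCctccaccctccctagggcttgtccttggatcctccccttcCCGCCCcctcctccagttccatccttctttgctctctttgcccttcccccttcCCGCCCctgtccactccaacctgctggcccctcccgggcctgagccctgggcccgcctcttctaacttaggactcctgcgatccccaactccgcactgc
Axl, GRCm38.p6, minus strand, chr7:25788734-25788983: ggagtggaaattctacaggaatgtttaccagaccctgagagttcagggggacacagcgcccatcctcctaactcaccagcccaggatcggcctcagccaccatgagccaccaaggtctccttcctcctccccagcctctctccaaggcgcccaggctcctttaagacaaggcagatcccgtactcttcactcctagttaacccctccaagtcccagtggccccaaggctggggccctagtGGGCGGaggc
Gas6, GRCm38.p6, minus strand, chr8:13494536-13494785: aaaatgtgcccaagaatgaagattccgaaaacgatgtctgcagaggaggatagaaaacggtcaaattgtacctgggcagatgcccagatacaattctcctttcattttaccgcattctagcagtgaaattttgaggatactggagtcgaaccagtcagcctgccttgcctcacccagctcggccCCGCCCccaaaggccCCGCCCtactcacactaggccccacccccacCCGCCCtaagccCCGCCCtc
GC boxes matched 3 times upstream of Mertk, 1 time upstream of Axl and 4 times upstream of Gas6, and 32.7% of the 32851 promoters in the RefSeq table hold at least 1 in the same window. AP-1 sites (TGANTCA), nuclear receptor half-sites (AGGTCA), E-boxes (CACGTG) and STAT sites (TTCNNNGAA) had 0 matches on either strand of the 3 windows. These letters occur in 6.75%, 14.0%, 6.02% and 7.02% of all promoters. The start used for Axl lies inside the gene span given above, which counts all its RefSeq transcripts, so that 191 of the 250 bases of its window are within that span. The windows hold matches of letters, which are not evidence of binding.

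Tyro3, the least abundant of the TAM kinases in these cells (chromosome 2, 119797740 to 119818104), is also known to be expressed by melanocytes and melanoma cells. Its FPKM was 2.71, 3.48, 1.53 and 1.46 in TAM-WT and 3.54, 3.44, 2.85 and 2.67 in TAM-KO. TAM-WT replicates 3 and 4 stood below all other libraries, and TAM-WT replicates 1 and 2 lay within the TAM-KO range. The log2 fold change was 0.36 ± 0.23 (SE, adjusted p = 0.327, edgeR). The summed FPKM of 7 melanoma cell markers was 2640, 4380, 2010 and 1960 in TAM-WT and 4490, 5060, 4740 and 3820 in TAM-KO. TAM-WT replicates 3 and 4 were lowest in both, and 1 of the 7 markers, Sox10, passed the test as higher in TAM-KO (log2 fold change 0.76, adjusted p = 0.0295, edgeR). None of the 7 was at 0 in any library, although the sort was for CD45+ cells, and the part of melanoma RNA in the Tyro3 values was not tested.

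**Figure D2:**
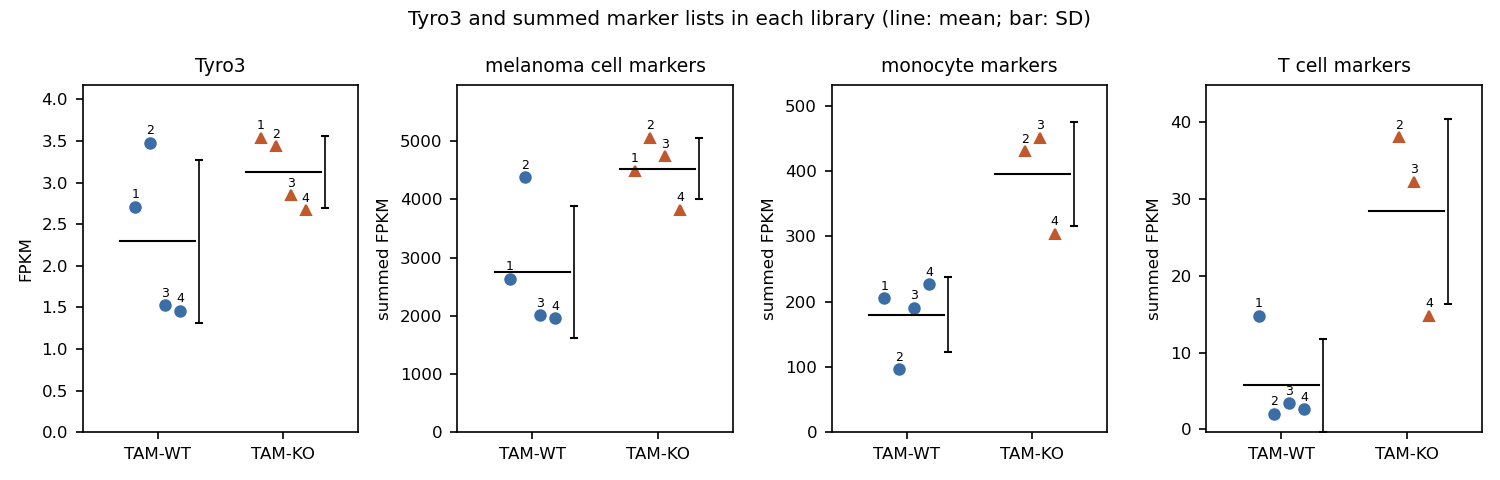
Tyro3 FPKM and the summed FPKM of the melanoma cell, monocyte and T cell marker lists in TAM-WT (circles) and TAM-KO (triangles), 1 point per library numbered by replicate, with the mean as a line and the SD as a bar. The monocyte and T cell sums lack TAM-KO replicate 1. Tyro3 and the melanoma sum (1960 to 4380 in TAM-WT, 3820 to 5060 in TAM-KO) are both lowest in TAM-WT replicates 3 and 4, the monocyte sums (96.5 to 227 against 304 to 451) do not overlap, and the T cell sums are 2.06 to 14.8 in TAM-WT and 14.8 to 38.0 in TAM-KO.

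Timd4 and Megf10 are the receptors outside the TAM kinase family. Timd4 (chromosome 11, 46810786 to 46844333), a tethering receptor of resident macrophages, had 7, 6, 6 and 1 counts in TAM-WT and 1, 2, 5 and 4 in TAM-KO. At FPKM values from 0.03 to 0.56 the groups overlapped, and the gene was left out of the test by the filter on low counts. Megf10 (chromosome 18), a receptor related to worm CED-1 that is best known in glia, had an FPKM of 0.36, 0.69, 0.38 and 0.38 in TAM-WT and 0.59, 0.94, 1.05 and 0.63 in TAM-KO. TAM-WT replicate 2 stood apart from its group and inside the TAM-KO range, and the other TAM-WT libraries lay below all 4 TAM-KO libraries. The melanoma marker sum had the same arrangement, with 4380 in TAM-WT replicate 2, 1960 to 2640 in the other TAM-WT libraries and 3820 to 5060 in TAM-KO, and its part in the Megf10 values was not tested. The log2 fold change of Megf10 was 0.71 ± 0.25 (SE, adjusted p = 0.0963, edgeR). It passed without TAM-WT replicate 2 (adjusted p = 0.0194, edgeR), in DESeq2 (adjusted p = 0.0492) and in voom (adjusted p = 0.0172), at a level under 2 FPKM in every library.

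Mfge8 and Tgm2 act at the integrin that binds phosphatidylserine through a bridge. Mfge8 (chromosome 7, 79133768 to 79149060), the bridge itself, had an FPKM of 12.88, 16.03, 15.01 and 15.59 in TAM-WT and 16.9, 13.3 and 15.31 in TAM-KO replicates 2 to 4. Both groups spanned the same levels (log2 fold change -0.08, standard error 0.12, adjusted p = 0.686, edgeR), and the sign turned with total counts as library sizes, with FPKM in limma and without TAM-KO replicate 3. Tgm2 (chromosome 2, 158116405 to 158146392), a crosslinking enzyme that also serves as a co-receptor of that integrin, had an FPKM of 74.47, 46.25, 82.22 and 105.35 in TAM-WT. In TAM-KO Tgm2 had 96.2, 148.03, 133.52 and 119.66. Only TAM-WT replicate 4 reached into the TAM-KO range, above TAM-KO replicate 1. The means of Tgm2 were 77.07 ± 24.4 and 124.4 ± 22.1 FPKM (SD, n = 4 each), with a log2 fold change of 0.57 ± 0.24 (SE, adjusted p = 0.14, edgeR). In none of the other settings tried did Tgm2 pass (adjusted p from 0.0601 to 0.312).

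Elmo1, Dock1 and Dock2 form the switch that activates Rac. Elmo1 (chromosome 13, 20090507 to 20608353), the adaptor, had an FPKM of 39.06, 32.84, 37.81 and 38.77 in TAM-WT and 25.33, 24.58 and 34.95 in TAM-KO replicates 2 to 4. TAM-KO replicates 2 and 3 were below every TAM-WT library, and TAM-KO replicate 4 lay inside the TAM-WT range. The means of Elmo1 were 37.12 ± 2.90 (SD, n = 4) and 28.29 ± 5.78 FPKM (SD, n = 3), with a log2 fold change of -0.50 ± 0.16 (SE, adjusted p = 0.0738, edgeR). Elmo1 passed with TAM-WT replicate 2 left out (adjusted p = 0.0344, edgeR), with TAM-KO replicate 4 left out (adjusted p = 0.0209, edgeR, where 9.07% of all genes passed), in DESeq2 (adjusted p = 0.0282) and in voom (adjusted p = 0.00704). Dock1 (chromosome 7, 134670687 to 135173647), the widely expressed exchange factor that pairs with Elmo1, spanned 10.2 to 12 FPKM in TAM-WT and 10.4 to 12.39 in TAM-KO. The log2 fold change of Dock1 was -0.05 ± 0.07 (SE, adjusted p = 0.643, edgeR), and its sign also turned with total counts and with FPKM in limma. Dock2 (chromosome 11, 34226815 to 34783905), the exchange factor of blood cells, had an FPKM of 50.17, 36.03, 43.83 and 47.69 in TAM-WT and 36.67, 46.32, 40.3 and 44.92 in TAM-KO. The Dock2 values were interleaved (log2 fold change -0.19, standard error 0.13, adjusted p = 0.342, edgeR), and passed only without TAM-WT replicate 2, the lowest of its group (adjusted p = 0.0469, edgeR).

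By level per gene length, Tgm2 came first and Timd4 last in both groups. In TAM-WT the mean FPKM ran from Tgm2 (77.07) over Dock2 (44.43), Axl (39.33), Elmo1 (37.12), Mertk (21.96), Mfge8 (14.88), Dock1 (11.13), Tyro3 (2.30) and Megf10 (0.453) to Timd4 (0.283). The ranges of the first 4 overlapped from neighbor to neighbor, as did those of Megf10 and Timd4, and the other neighbors were apart. In TAM-KO Axl (63.18) ranked above Dock2 (42.05), the other genes kept their places, and no neighbors overlapped. Axl exceeded Dock2 in 4 of 4 TAM-KO libraries and Dock2 exceeded Axl in 3 of 4 TAM-WT libraries.

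Among tested genes with a mean FPKM of at least 5, those whose log2(FPKM + 1) ran most like Mertk over 7 libraries were Rchy1 (Pearson's r = 0.974), Nptn (0.965) and Capzb (0.959). The nearest to Axl were Il18 (0.988, 7 libraries), Cpq (0.988, 8 libraries) and H2-T22 (0.986, 7 libraries). These are the highest of 8697 genes over the same few libraries, which also share the difference between genotypes, and are given as a description.

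The genes around the members were read from a list of 72 other efferocytosis genes by role. Of the 70 tested, 15 passed, 3 higher and 12 lower in TAM-KO, with a median log2 fold change of -0.08. Over all genes 9.81% passed, 4.58% higher and 5.24% lower. The count was 27 without TAM-WT replicate 2, 6 without TAM-WT replicate 4, and 0 when TAM-WT replicate 3 or either of TAM-KO replicates 2 and 3 was left out. None of the 15 passed in all 8 fits with 1 library left out. The summed FPKM of 6 monocyte markers was 96.5 to 227 in TAM-WT and 304 to 451 in TAM-KO replicates 2 to 4, with Ly6c2 and Plac8 passing the test as higher. Of that list Chil3, Ccr2 and Vcan did not pass, with log2 fold changes of 0.82, -0.05 and -0.38 (adjusted p = 0.144, 0.917 and 0.426, edgeR). The part of monocytes in the changes below was not tested.

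**Figure D3:**
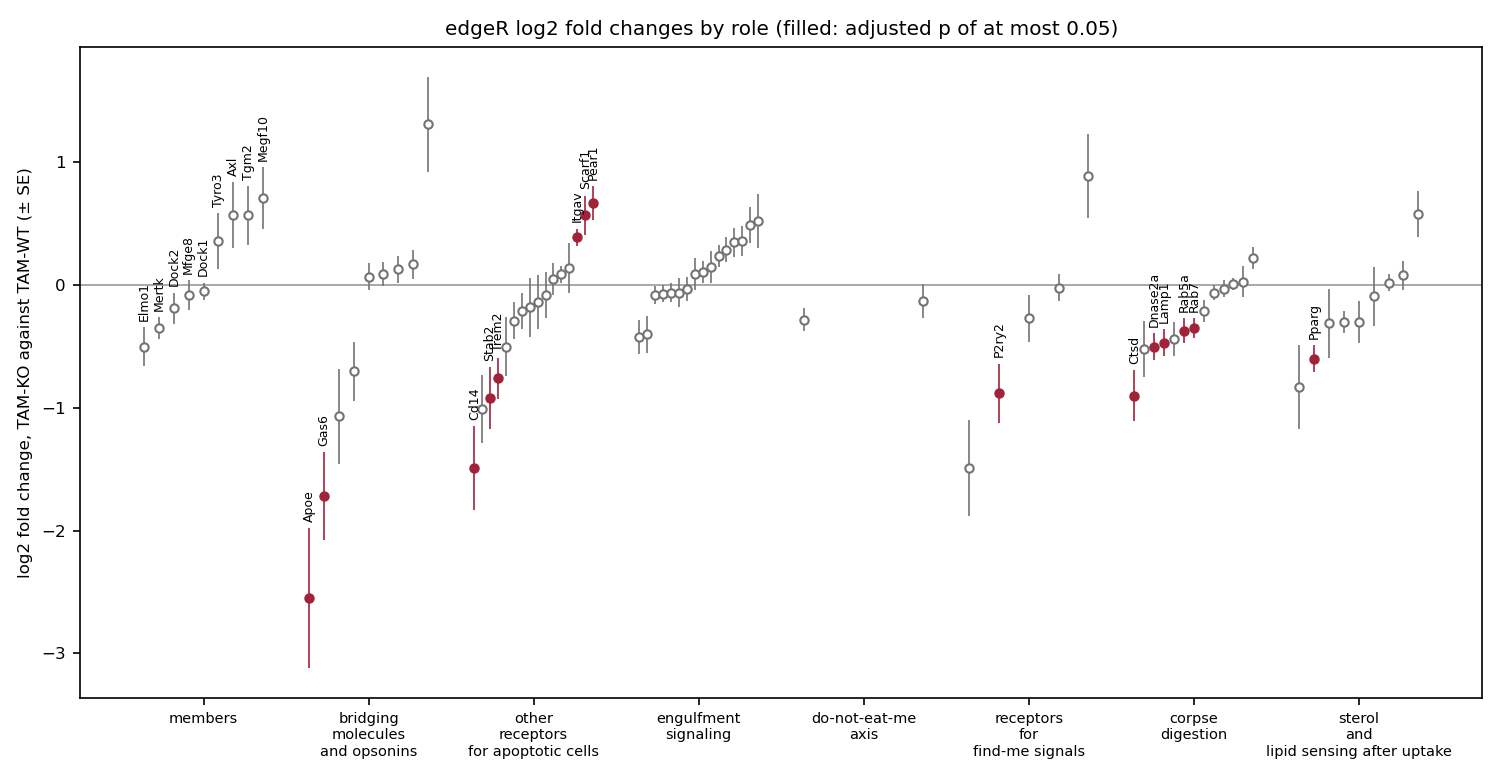
log2 fold change of TAM-KO against TAM-WT (points) with its standard error (bars) from edgeR for the 9 tested members and 70 pathway genes, in columns by role and sorted within each; filled points passed an adjusted p of at most 0.05. No member is filled, while 15 pathway genes are, from Apoe at -2.55 to Pear1 at 0.67.

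Gas6 and Apoe fell among the 9 bridging molecules and opsonins, whose median log2 fold change was 0.07, where 5.24% of all genes were lower. Gas6, the ligand of all TAM kinases, had an FPKM of 212.9, 259.3, 207.3 and 180.29 in TAM-WT. In TAM-KO it had 101.37, 39.97, 50.67 and 116.52, the first taken from the table of the whole series. Every TAM-KO library was below every TAM-WT library, and the mean was 2.79 times higher in TAM-WT (214.9 ± 32.8 against 77.13 ± 37.5 FPKM, SD, n = 4 each). On 3 TAM-KO libraries the log2 fold change of Gas6 was -1.72 ± 0.36 (SE, adjusted p = 0.0305, edgeR). It was -1.58 with the fourth library added (adjusted p = 0.0288, edgeR) and -2.37 without TAM-KO replicate 4. The Gas6 call was lost without TAM-WT replicate 3 (adjusted p = 0.0823, edgeR), TAM-WT replicate 4 (0.0569), or, of the TAM-KO libraries, replicate 2 (0.0975) or 3 (0.11).

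Pros1, which encodes protein S, the other TAM kinase ligand, had an FPKM of 16.89, 14.14, 13.25 and 13.75 in TAM-WT and 14.57, 22.15, 17.97 and 15.86 in TAM-KO. Its groups overlapped (log2 fold change 0.17, adjusted p = 0.338, edgeR). Gas6 exceeded Pros1 in FPKM by 12.6, 18.3, 15.6 and 13.1 times in TAM-WT and by 6.96, 1.80, 2.82 and 7.35 times in TAM-KO, so that the ratios did not overlap. Apoe, a lipid carrier that can opsonize dying cells, had an FPKM of 3175.23, 2886.32, 3313.63 and 497.2 in TAM-WT, and 435.38 to 454.44 in TAM-KO. TAM-WT replicate 4 was far below its group and close to the TAM-KO libraries, though still above all of them. The log2 fold change of Apoe was -2.55 ± 0.57 (SE, adjusted p = 0.0339, edgeR), and -2.88 without TAM-WT replicate 4 (adjusted p = 0.000211, edgeR). In the fits that left out 1 library Apoe passed in 3 of 8, and was lost without TAM-WT replicate 1 (adjusted p = 0.0505, edgeR), TAM-WT replicate 3 (0.0904), or, of the TAM-KO libraries, replicate 2 (0.13), 3 (0.118) or 4 (0.0659). The passes of Apoe include the fit without TAM-KO replicate 1, a library that its reported fit already lacked.

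**Figure D4:**
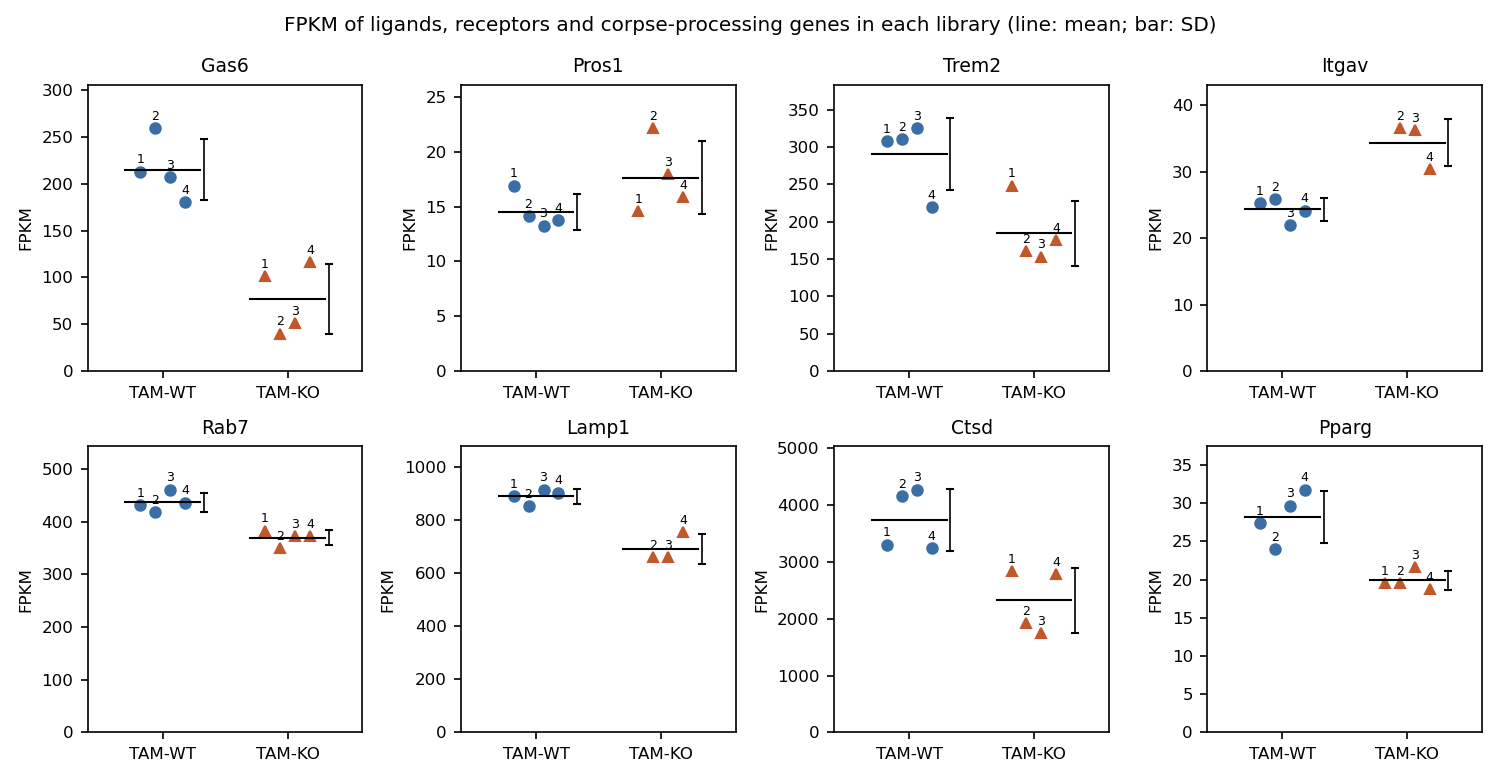
FPKM of 8 pathway genes in TAM-WT (circles) and TAM-KO (triangles), 1 point per library numbered by replicate, with the mean as a line and the SD as a bar; Itgav and Lamp1 lack TAM-KO replicate 1. Gas6 (180.29 to 259.3 against 39.97 to 116.52), Rab7, Lamp1, Ctsd, Pparg and Itgav do not overlap between the groups, while Pros1 and Trem2 do. All genes shown but Pros1 had passed the test on these same libraries, except that the test of Gas6 and Ctsd left out TAM-KO replicate 1. Their points for that library come from the table of the whole series. Over all tested genes, 17.1% of those measured in 4 against 4 libraries and 26.5% of those in 4 against 3 did not overlap, with Gas6 and Ctsd counted among the latter.

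Other receptors for dying cells went in both directions. Of 16 tested, 3 rose and 3 fell, where 4.58% and 5.24% of all genes did, with a median log2 fold change of -0.16. Itgav, the integrin subunit that Mfge8 binds, rose from 24.33 ± 1.73 (SD, n = 4) to 34.41 ± 3.51 FPKM (SD, n = 3), with a log2 fold change of 0.39 ± 0.07 (SE, adjusted p = 0.0229, edgeR). Scarf1, a scavenger receptor, and Pear1, a relative of Megf10, rose by 0.57 and 0.67 on the log2 scale (adjusted p = 0.0499 and 0.0259, edgeR). Scarf1 did not pass with DESeq2 size factors (adjusted p = 0.0507, edgeR), with at least 10 counts per library (0.0507) or with the series-wide values of TAM-KO replicate 1 added (0.0584), and passed in 2 of the 8 fits with 1 library left out. Trem2, a lipid receptor of macrophages, had an FPKM of 308.17, 310.67, 325.16 and 219.54 in TAM-WT and 248.12, 160.6, 152.95 and 175.34 in TAM-KO. It fell by 0.76 on the log2 scale (adjusted p = 0.0308, edgeR), with an overlap of TAM-WT replicate 4 and TAM-KO replicate 1. Cd14, a receptor that tethers apoptotic cells, and Stab2, a phosphatidylserine receptor under 1 FPKM in every library, fell by 1.49 and 0.92 (adjusted p = 0.0356 and 0.0482, edgeR). Stab2 passed in 1 of those 8 fits.

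Engulfment signaling, in which Elmo1, Dock1 and Dock2 act, held 0 of 16 calls in edgeR, with 8 of 16 at an unadjusted p under 0.05 (9.81% and 30.7% of all genes) and a median log2 fold change of 0.10. Its most abundant genes were the GTPases Rac1, at 331.4 ± 12.7 and 338.9 ± 15.3 FPKM, and Rhog, at 234.4 ± 36.2 and 267.9 ± 25.1 FPKM in TAM-WT and TAM-KO (SD, n = 4 each). Rac1 and Rhog had log2 fold changes of -0.08 and 0.09 (adjusted p = 0.473 and 0.674, edgeR). The inhibitory receptor Sirpa and its ligand Cd47 had log2 fold changes of -0.28 and -0.13 (adjusted p = 0.0673 and 0.584, edgeR). Among 5 receptors for signals that draw phagocytes to dying cells, P2ry2, a nucleotide receptor, fell by 0.88 on the log2 scale (adjusted p = 0.048, edgeR), where 5.24% of all genes were lower. P2ry2 did not pass with DESeq2 size factors (adjusted p = 0.0501, edgeR) or with the series-wide values of TAM-KO replicate 1 added (0.0539). It passed in 1 of the 8 fits with 1 library left out, where adjusted p reached 0.14 (edgeR).

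Genes of corpse digestion had 5 calls among 13, all lower, where 5.24% of all genes were lower, and a median log2 fold change of -0.35. Rab5a and Rab7, GTPases of early and late phagosomes, fell by 0.37 and 0.35 on the log2 scale (adjusted p = 0.0449 and 0.0349, edgeR). Rab7 had 431.91, 418.49, 460.96 and 436.01 FPKM in TAM-WT and 383.3, 350.19, 372.82 and 372.45 in TAM-KO, with no overlap. Lamp1, a lysosomal membrane protein, fell from 888.3 ± 27.5 (SD, n = 4) to 690.3 ± 55.1 FPKM (SD, n = 3; adjusted p = 0.0385, edgeR). Dnase2a, the lysosomal nuclease that degrades corpse DNA, fell by 0.50, and Ctsd, the protease cathepsin D, by 0.90 on the log2 scale (adjusted p = 0.0351 and 0.0402, edgeR). Of the 8 fits with 1 library left out, Rab5a passed in 2, Rab7 and Lamp1 in 3 each, and Dnase2a and Ctsd in 4 each. For Lamp1, Dnase2a and Ctsd these passes include the fit without TAM-KO replicate 1. Their reported fit already lacked that library, so only the adjustment over genes differed. With total counts as library sizes Rab5a did not pass (adjusted p = 0.0617, edgeR). Among 9 genes of sterol and lipid sensing, Pparg, a nuclear receptor activated by fatty acids, had 28.19 ± 3.35 FPKM in TAM-WT and 19.89 ± 1.24 in TAM-KO (SD, n = 4 each) and fell, with a log2 fold change of -0.60 ± 0.11 (SE, adjusted p = 0.0201, edgeR). The median of these 9 genes was -0.30.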

How the data were processed

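RNA of CD45+F4/80+ cells was sequenced by the authors on a BGISEQ-500. The submitters' processing notes name HISAT2 2.0.4, Bowtie2 2.2.5, RSEM 1.2.12 and the build GRCm38.p6; the annotation is not given in the sources used here. The expected counts were deposited by the authors as RSEM estimated them, without normalization. Deposited beside them were the FPKM values, relative to gene length and mapped reads. The fold changes, p-values and q-values of the authors' own comparison, in the table of the whole series, were not used.

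Samples were grouped by the genotype in their labels. After rounding, the expected counts entered edgeR's quasi-likelihood test (edgeR 4.0.16 in R 4.3.3), with scaling by TMM and the filterByExpr filter. The fit used 7 libraries for genes missing from TAM-KO replicate 1 and 8 for the 12572 genes with every value, and p was adjusted by Benjamini-Hochberg over both sets together. In TAM-KO replicate 1, 629 values displaced from other genes and 1 broken line were left out. The series-wide table holds only the 3996 genes that the authors list as differentially expressed. It gave that library for 1188 of 4214 missing genes, but not for Mertk, Mfge8 or Elmo1. These values enter the FPKM means and FPKM comparisons of named genes, but neither the test nor the shares of all genes without overlap. Of 30780 counts shared by both sources, 30780 were equal within 0.01. Totals of 16225362 to 17280267 reads limit precision mainly for genes with few counts, such as Timd4.

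The members and lists were chosen with earlier results of these data known. Named were all members, every passing gene of each role or otherwise its 2 most abundant, markers of lists that moved with a result, and the 3 genes most like Mertk and Axl. The alternatives were DESeq2 size factors, total counts, DESeq2 1.42.0, limma 3.58.1 (voom with quality weights, and log2(FPKM + 1) or log2(FPKM + 0.1)), dropping the filter, a minimum of 10 counts per library, a replicate block, the series-wide values of TAM-KO replicate 1 in the test, 7 libraries for all genes, each library left out, and stricter thresholds. The test was tested on simulated data. Promoters came from RefSeq, with entries for 8 of the 10 members. The values of 1 marker gene are not reported here, though the sum over its list includes it.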

Additional observations from a re-analysis of the deposited data

Results flagged for a closer look

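Of 44 groups of 4 libraries compared, 5 held a library far from the other 3, where chance gives about 1 in 20 groups, or 2.2 here. Megf10 in TAM-WT replicate 2 (0.69 FPKM) was high, with a gap to the nearest library of 0.939 of the group's range. Apoe in TAM-WT replicate 4 (497.2 FPKM) and Trem2 in the same library (219.54 FPKM) were low, with gaps of 0.848 and 0.839 of the range. Scarf1 in TAM-KO replicate 1 (9.67 FPKM) was low, with a gap of 0.879. Rab5a in TAM-WT replicate 3 (43.57 FPKM) was high, with a gap of 0.872.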

How the results depend on the processing

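Members passing numbered 0 in edgeR, 3 in DESeq2, 3 in voom, and from 0 to 4 with 1 library left out (1 when TAM-WT replicate 1 or TAM-KO replicate 4 was left out, 4 when TAM-WT replicate 2 was). Pathway genes passing numbered 15 in edgeR, 27 in DESeq2, 35 in voom, and from 0 to 27 with 1 library left out. Over all genes 1218 passed in edgeR, 2253 in DESeq2, 3625 in voom, 682 on 7 libraries, and from 77 to 2755 with 1 library left out. At an adjusted p of at most 0.01 there were 36 in edgeR. At an adjusted p of at most 0.05 with a fold change of at least 2 as well there were 314. The causes of these differences between tools and between libraries were not tested.

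The log2 fold change of Mfge8 turned to 0.030 with total counts as library sizes, 0.025 and 0.026 in limma on log2(FPKM + 1) and log2(FPKM + 0.1), and 0.012 without TAM-KO replicate 3, the highest of the fits with 1 library left out, of which the lowest was -0.161. That of Dock1 turned to 0.026, 0.048 and 0.051 under the first 3 of these. The median over all genes was 0.002 in the fit reported, 0.089 with total counts and log2(FPKM + 1), and 0.106 with log2(FPKM + 0.1). Under these 3 scalings both genes stayed below the median over all genes. Among the values of members in other settings, 152 kept direction and side of the threshold, 12 newly passed and 7 turned sign. Among those of the 15 pathway genes, 185 kept both and 100 no longer passed. The settings with 7 libraries for all genes and without TAM-KO replicate 1 are the same fit, which these tallies count repeatedly.

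Replicate numbers did not pair the samples: same-numbered libraries had correlations of their deviations of -0.321, 0.020, -0.239 and 0.263. With the number as a block, 0 members, 13 pathway genes and 1080 genes passed. Of those 13 pathway genes, 7 were among the 15 reported and 6 were others; Apoe, Ctsd, Itgav, Lamp1, Rab5a, Rab7, Scarf1 and Stab2 had adjusted p from 0.051 to 0.093 under the block. Among members the adjusted p under the block was 0.112 for Mertk, 0.0649 for Elmo1 and 0.0595 for Megf10. Depth limits Timd4, whose counts were at most 7.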
